A study of Mus musculus with 11 samples.

Results

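Gene expression at the cardiac intercalated disc was followed in mouse left ventricle through 10 genes, the connexins Gja1, Gja5 and Gjc1, the desmosomal genes Dsp, Dsg2, Dsc2, Pkp2 and Jup, the cadherin Cdh2 and the scaffold gene Tjp1. They were chosen as a fixed list of gene symbols and matched to 10 of the 25006 genes counted. All 10 passed the filter on low counts, as 14779 genes did. RNA came from 11 mice, with 1 library for each mouse. The groups were naive control hearts (n = 2), naive Vegfc-deficient hearts (n = 3), control hearts 9 days after MI (n = 3) and Vegfc-deficient hearts 9 days after MI (n = 3). MI was made by permanent ligation of the left anterior descending artery, and infarcted ventricle was taken, with ventricle of similar mass and position from the naive mice. Vegfc-deficient mice were Vegfc fl/fl with LysMCre, a Cre driven from the Lyz2 locus that is active in macrophages and other myeloid cells, so the heart muscle itself kept its Vegfc alleles. The genotype label gives the control mice as Vegfc fl/fl, whereas the extraction protocol and the study's methods name LysMCre mice. The study's figure legend for the sequenced hearts names Vegfc fl/fl mice or an inbred strain listed without a Vegfc or Cre allele. Which account holds for each control library was not tested. The time after MI is 9 days in the study's methods and 1 week in its results text. Ages and sexes are not given in the labels.

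The intercalated disc is the end-to-end contact between cardiomyocytes. Gap junctions, built from connexins, pass current and small molecules from cell to cell, while desmosomes tie the intermediate filaments of neighbouring cells together and the fascia adherens anchors the actin of the last sarcomere. Loss and lateral displacement of connexin 43, the product of Gja1, at the edge of an infarct is a textbook feature of the injured ventricle, and inherited changes in desmosomal genes cause arrhythmogenic cardiomyopathy.

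Promoter windows are shown for the 2 connexins whose levels moved in opposite directions after MI and for the desmosomal anchor gene Dsp. RefSeq windows on GRCm38.p6, from 250 bases before to 50 bases after the start site, matched 5 of the 10 genes (Gja1, Gja5, Dsp, Jup and Tjp1). The 3 windows below are on the plus strand, at chr10:56377050-56377349 for Gja1, chr3:97032152-97032451 for Gja5 and chr13:38151044-38151343 for Dsp. The windows of Gja5 and Tjp1 lie inside the gene spans given below, and the outer starts of those spans were not searched. Capitals mark every match to a searched motif on either strand.
Gja1: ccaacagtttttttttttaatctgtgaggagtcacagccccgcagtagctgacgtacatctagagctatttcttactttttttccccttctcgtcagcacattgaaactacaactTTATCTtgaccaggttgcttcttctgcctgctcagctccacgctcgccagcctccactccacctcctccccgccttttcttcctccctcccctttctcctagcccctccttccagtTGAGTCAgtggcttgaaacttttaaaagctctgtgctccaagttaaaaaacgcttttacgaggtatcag
Gja5: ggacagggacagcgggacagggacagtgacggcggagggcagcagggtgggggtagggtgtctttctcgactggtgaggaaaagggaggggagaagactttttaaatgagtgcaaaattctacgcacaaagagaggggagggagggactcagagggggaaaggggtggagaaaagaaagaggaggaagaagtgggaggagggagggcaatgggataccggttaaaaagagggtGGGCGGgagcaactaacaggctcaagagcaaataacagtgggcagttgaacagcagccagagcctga
Dsp: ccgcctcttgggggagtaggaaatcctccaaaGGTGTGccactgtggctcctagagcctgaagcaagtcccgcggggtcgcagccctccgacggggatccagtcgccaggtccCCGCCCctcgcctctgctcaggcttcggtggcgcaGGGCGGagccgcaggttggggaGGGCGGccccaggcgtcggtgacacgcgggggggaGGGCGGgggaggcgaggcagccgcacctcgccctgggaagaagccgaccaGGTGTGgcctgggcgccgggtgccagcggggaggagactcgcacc
The motifs searched were TGANTCA for AP-1, GGGCGG for Sp1, AGATAA for GATA factors, CAAGTG for NKX2 factors, GGTGTG for T-box factors, CTANNNNTAG for MEF2 and ATCAAAG for TCF/LEF. The capitals in the Gja1 window are 1 AP-1 match at -19 and 1 GATA match at -135 from the start site. The Gja5 window held 1 Sp1 match, at -17. The Dsp window held 4 Sp1 matches and 2 T-box matches. Of the windows not shown, Jup (chr11:100397741-100398040, minus strand) held 2 Sp1 matches and 1 T-box match, and Tjp1 (chr7:65371195-65371494, minus strand) held 2 Sp1 matches. Among 27025 genes with such a window, 7.93% held the AP-1 motif, 35.9% Sp1, 11.4% GATA, 13.5% NKX2, 19% T-box, 3.7% MEF2 and 3.72% TCF/LEF. These matches describe letters and not bound factors.

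Total counts per library ran from 10824989 to 26782728, and 3 counts corresponded to 0.101 to 0.363 CPM, the unit of counts scaled to library size with TMM factors. This covers counting error only. Whole-tissue Vegfc did not separate the genotypes, at 21.9 to 45.5 CPM in all 11 libraries. Lyz2, which the LysMCre insertion disrupts, was at 2121 to 5380 CPM in the 5 control libraries. It was at 72.5 and 245 CPM in naive Vegfc-deficient M150 and M34. MI Vegfc-deficient M35, M900 and M913 had 1392, 203 and 12.4 CPM, M35 being the highest of these. M149, also labelled as a naive Vegfc-deficient library, had 4565 CPM. The edgeR tests with TMM factors that use the naive Vegfc-deficient group are therefore given below with and without M149. Values from alternative settings include M149 unless stated. Xist was at most 11.8 CPM in the naive libraries and at least 188 CPM in the MI libraries, while the summed Y-linked genes were 152 CPM or more in the naive group of libraries and 1.84 CPM or less after MI. Sex and MI therefore cannot be told apart here.

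In naive control hearts, the plaque genes of the desmosome and Gja1 were the most abundant of the 10. Per kilobase of joined exons, the mean level was 39.7 ± 0.230 CPM (SD, n = 2) for Pkp2, 31.4 ± 3.02 for Dsp, 25.0 ± 1.11 for Gja1 and 19.1 ± 2.78 for Jup. Gjc1 at 11.2, Cdh2 at 8.96, Tjp1 at 6.14, Dsg2 at 5.09 and Dsc2 at 4.56 CPM per kb followed, and Gja5 was lowest at 1.81 CPM per kb. No neighbours in this order had overlapping ranges in the 2 libraries. In naive Vegfc-deficient hearts the order of the 10 genes was the same, with Pkp2 at 47.6 ± 7.46 and Gja5 at 1.95 ± 0.841 CPM per kb (SD, n = 3), but the ranges of Dsp and Gja1, Gja1 and Jup, Gjc1 and Cdh2, Tjp1 and Dsg2 and Dsg2 and Dsc2 overlapped. Without M149 the order was again the same, and only the ranges of Gjc1 and Cdh2 and of Dsg2 and Dsc2 overlapped in the remaining 2 libraries.

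After MI this order was flattened on the scale of joined exons. In MI control hearts the means of Jup, Pkp2, Gja1, Dsp, Gjc1, Tjp1 and Gja5 lay between 6.72 and 9.46 CPM per kb, and each overlapped the next in range. Cdh2 followed at 4.55, and Dsg2 at 1.01 and Dsc2 at 0.67 CPM per kb had the lowest levels, with ranges that overlapped each other. In MI Vegfc-deficient hearts Gja1 had the highest mean, at 13.3 ± 8.43 CPM per kb (SD, n = 3), and the ranges of all neighbours overlapped except those of Gja5 and Dsg2. The order between genes, and how close their MI means lie, depend on the length used. Gja1 has 10257 bases of joined exons and 3889 in its longest transcript, whereas Dsp has 9659 and 9592. With the longest transcript in place of all joined exons, Gja1 stood at 66.0 CPM per kb in naive control hearts, next to Pkp2 at 72.7 and above Jup at 38.4 and Dsp at 31.6.

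**Figure D1:**
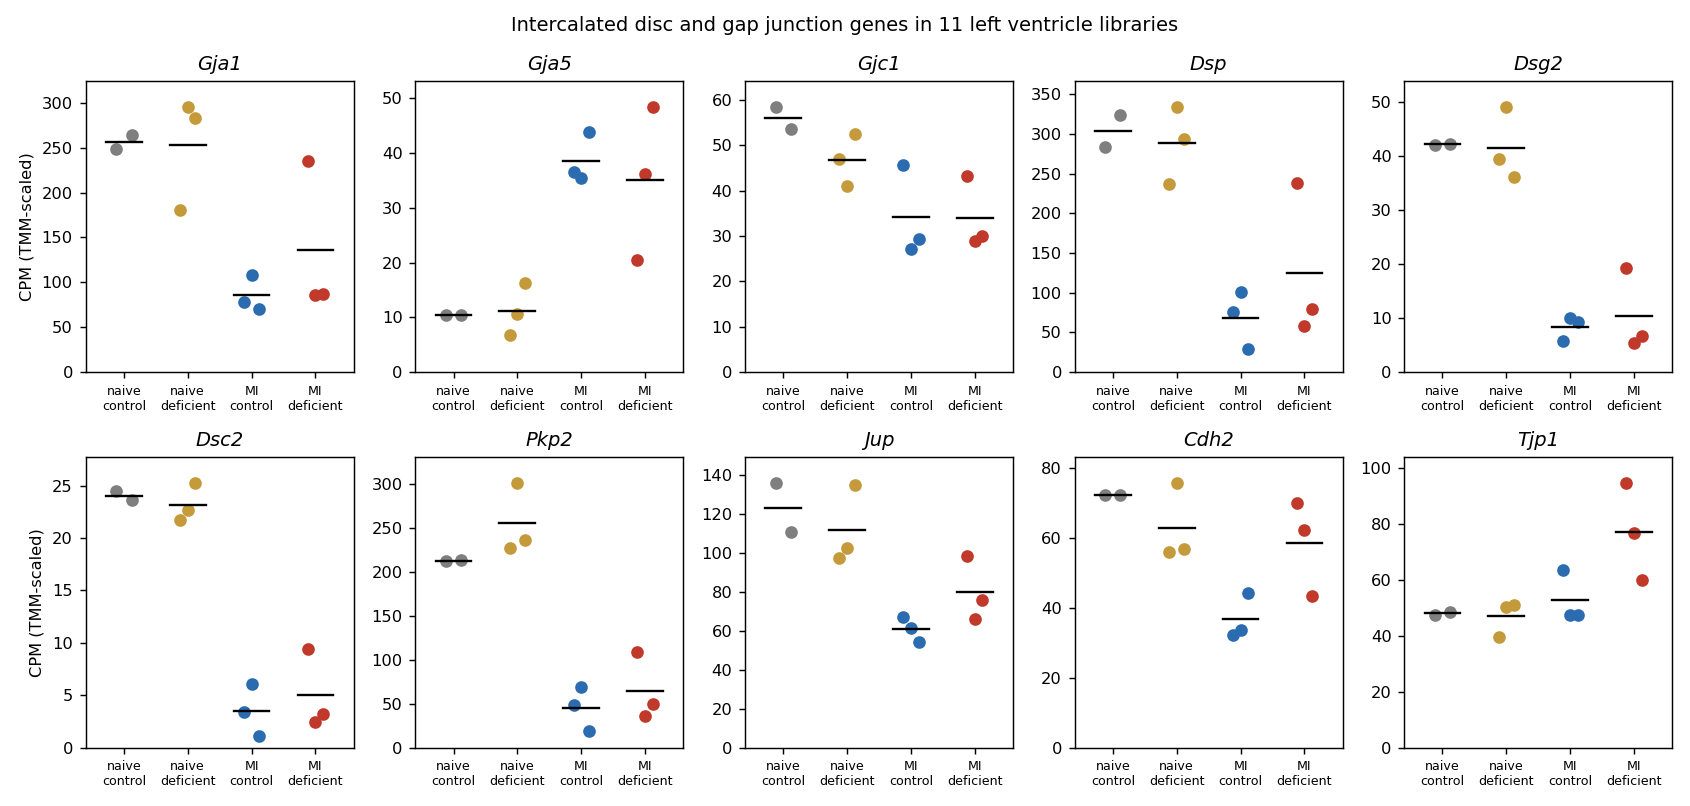
Level of each of the 10 genes in CPM, with 1 point per library and a bar at the mean of each group. The gap junction gene Gja5 is the one whose MI libraries all lie above the naive ones in both genotypes. Dsg2, Dsc2 and Pkp2 are the 3 whose MI libraries all lie below in both. Without M149, Gja1, Dsp and Jup lie below as well. Of all genes, 72.1% did not overlap in control and 64.3% in Vegfc-deficient mice (73.9% without M149).

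MI against naive hearts asks how the junction genes stand in infarcted ventricle. In control mice, 8 of the 10 genes were lower after MI and 1, Gja5, was higher. Dsc2 fell by 2.75 on the log2 scale, and Dsg2, Pkp2 and Dsp also fell by more than a factor of 4. Tjp1 did not pass the test. Over all genes tested, 50.4% were called in this comparison (24.1% lower, 26.3% higher) at an adjusted p under 0.05, so a called gene was not unusual in itself. In Vegfc-deficient mice, 4 genes were lower (Dsg2, Dsc2, Pkp2 and Jup) and 2 were higher (Gja5 and Tjp1), against 57.6% of all genes called (27.7% lower, 30% higher). Adjusted p-values are from the edgeR quasi-likelihood test, Benjamini-Hochberg over all genes tested. The median log2 fold change of the 10 genes was -1.30 in control and -0.69 in Vegfc-deficient mice, beside 0.13 and 0.097 over all genes. Without M149 it was -0.83 in Vegfc-deficient mice, beside 0.10 over all genes. In whole tissue, fewer cardiomyocytes and less RNA of a gene per cardiomyocyte cannot be told apart.

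**Figure D2:**
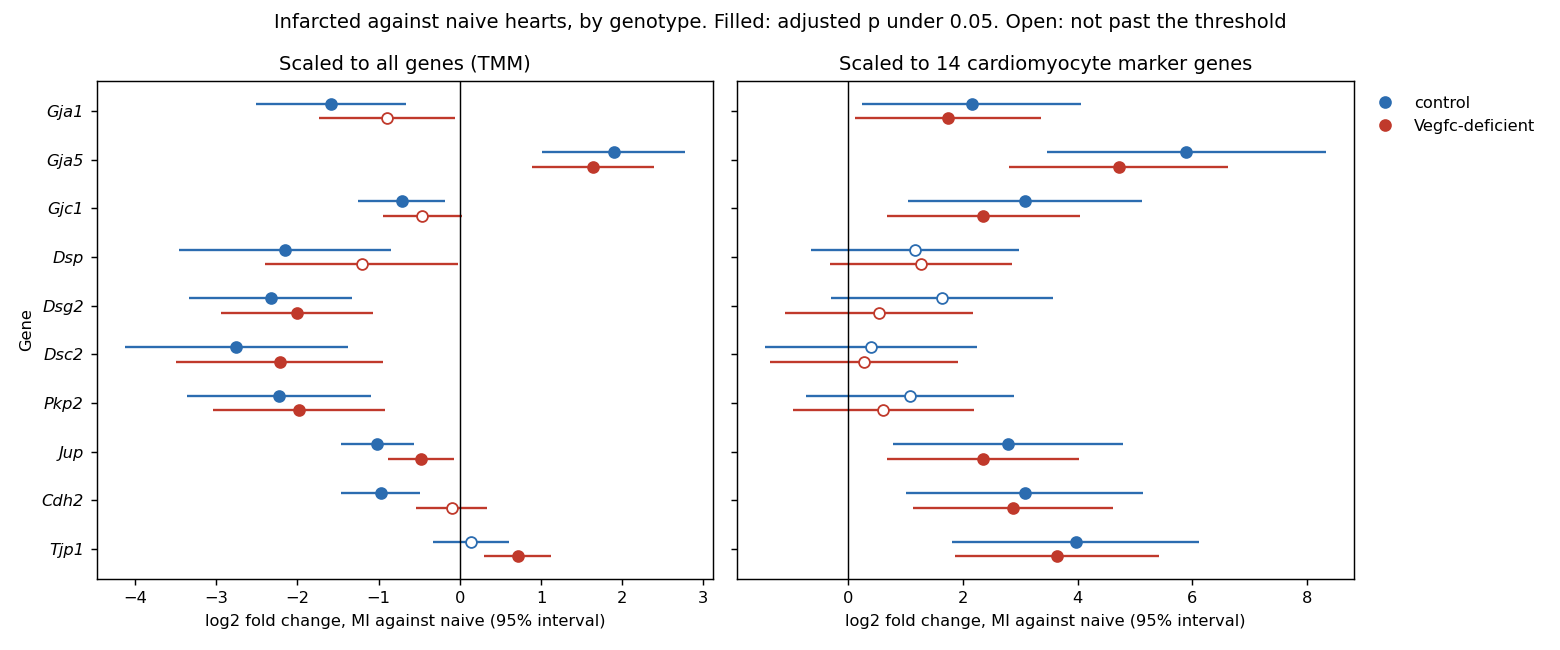
Log2 fold change, MI against naive, of each gene with its 95% interval, blue for control and red for Vegfc-deficient mice, filled where the adjusted p was under 0.05. On the left, with all genes as the scale, 8 genes of control mice are filled below 0 and Gja5 above. On the right, with the 14 cardiomyocyte marker genes as the scale, Dsp, Dsg2, Dsc2 and Pkp2 are open and the other 6 filled above 0. On that scale 90.5% of all genes in control and 83.3% in Vegfc-deficient mice were called higher.

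Gja1 (ENSMUSG00000050953, chromosome 10, 56377330 to 56402513, plus strand, GRCm38) encodes connexin 43, the main ventricular gap junction protein. It was at 249 and 265 CPM in naive control M44 and M45 and at 180, 295 and 283 CPM in naive Vegfc-deficient M149, M150 and M34. MI control M006, M38 and M40 had 77.8, 108 and 70.5 CPM, and MI Vegfc-deficient M35, M900 and M913 had 236, 85.4 and 86.6 CPM. The control groups did not overlap, whereas M35 lay within the naive range. In control mice Gja1 was lower after MI (log2 fold change -1.59, standard error 0.42, adjusted p = 0.00986). Without naive control M45 the adjusted p was 0.0522. In Vegfc-deficient mice the log2 fold change was -0.90 (standard error 0.38, adjusted p = 0.0646), which missed the threshold. It was -1.55 with an adjusted p of 8.08e-04 without M35 and -1.09 with an adjusted p of 0.0428 without M149. DESeq2 also called it lower (log2 fold change -0.95, adjusted p = 0.0325), as did limma-voom (-1.40).

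Gja5 (ENSMUSG00000057123, chromosome 3, 96904693 to 97077416, plus strand) encodes connexin 40, which in the heart is known from atrial muscle, the ventricular conduction system and arterial endothelium. It was at 10.3 and 10.4 CPM in the naive control libraries and at 6.77, 10.5 and 16.4 CPM in naive Vegfc-deficient M149, M150 and M34. Of the MI libraries, control M006, M38 and M40 stood at 36.6, 35.4 and 43.8 CPM and Vegfc-deficient M35, M900 and M913 at 20.5, 36.3 and 48.3 CPM. Every MI library lay above every naive library. The increase was 3.71-fold in control mice (log2 fold change 1.89, standard error 0.40, adjusted p = 0.00331) and 3.11-fold in Vegfc-deficient mice (log2 fold change 1.64, standard error 0.34, adjusted p = 0.00234). Without M149 the latter was 1.37 on the log2 scale (adjusted p = 0.00671).

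Values of other cell types and of an overlapping gene stand beside the rise of Gja5. Of all genes, 26.3% were higher and 24.1% lower in control mice, and 30% and 27.7% in Vegfc-deficient mice. The summed level of 8 arterial endothelial markers was 158 to 179 CPM in naive control and 202 to 319 CPM in MI control libraries, with 2 of the 8 higher and 2 lower in control mice and 4 higher in Vegfc-deficient mice (2 higher and 1 lower without M149). In the latter the sum was 130 to 188 CPM in naive and 205 to 288 CPM in MI libraries. Of 4 atrial markers tested out of 6, 2 were higher in each genotype. The sum of the list was 407 to 1261 CPM in naive and 1603 to 6051 CPM in MI libraries. Nppa and Myl4 are in this list, and whether its sum came from atrial cells was not tested. The highest sum was in M35, the MI library with the lowest Gja5 (20.5 CPM). Of 6 conduction system markers tested out of 7, none was higher, and 3 in control and 4 in Vegfc-deficient mice were lower, with sums of 31.5 to 40.5 CPM in naive and 10.8 to 24.0 CPM in MI libraries. The exons of Gja5 share 165 bases with Gpr89 on the opposite strand, which was at 27.4 to 32.1 CPM in naive and 20.04 to 24.4 CPM in MI libraries. The part of these cells and of Gpr89 in the rise was not tested.

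Gjc1 (ENSMUSG00000034520, chromosome 11, 102799579 to 102819700, minus strand) encodes connexin 45, a low-conductance connexin of the conduction system and the embryonic heart. It was at 58.3 and 53.6 CPM in the naive control libraries and at 47.0, 40.9 and 52.6 CPM in naive Vegfc-deficient M149, M150 and M34. MI control M006, M38 and M40 had 45.7, 27.2 and 29.4 CPM, and MI Vegfc-deficient M35, M900 and M913 had 43.1, 28.8 and 30.0 CPM. The control groups were separated by a small gap, and M35 overlapped the naive Vegfc-deficient range. In control mice Gjc1 fell by 0.72 on the log2 scale (standard error 0.24, adjusted p = 0.0302). This call was lost without any 1 of M44, M45, M38 and M40, with adjusted p-values for Gjc1 of 0.1396, 0.0890, 0.0671 and 0.0861. In Vegfc-deficient mice its log2 fold change was -0.46 (standard error 0.22, adjusted p = 0.0925), or -0.67 without M35 (adjusted p = 0.0256). Without M149 its adjusted p was 0.143.

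The share of each connexin among the 3 changed with these levels. Of their summed CPM per kb, Gja1 made up 62.4% to 74.2% in the 5 naive libraries and Gja5 4.18% to 6.95%. In MI control libraries Gja1 made up 32.9%, 47.7% and 33.7% in M006, M38 and M40 and Gja5 27.6%, 27.8% and 37.4%. In MI Vegfc-deficient libraries Gja1 made up 65.3%, 40.8% and 36.9% in M35, M900 and M913 and Gja5 10.1%, 30.9% and 36.8%. The M35 heart thus had a naive-like share of Gja1 while its Gja5 share lay above all naive libraries. Gjc1 stayed between 21.1% and 39.6% of the sum in all 11 libraries, with overlapping naive and MI values. With the longest transcript as the length, the mean share of Gja1 was 77.4% in naive control and 51.4% in MI control hearts.

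**Figure D3:**
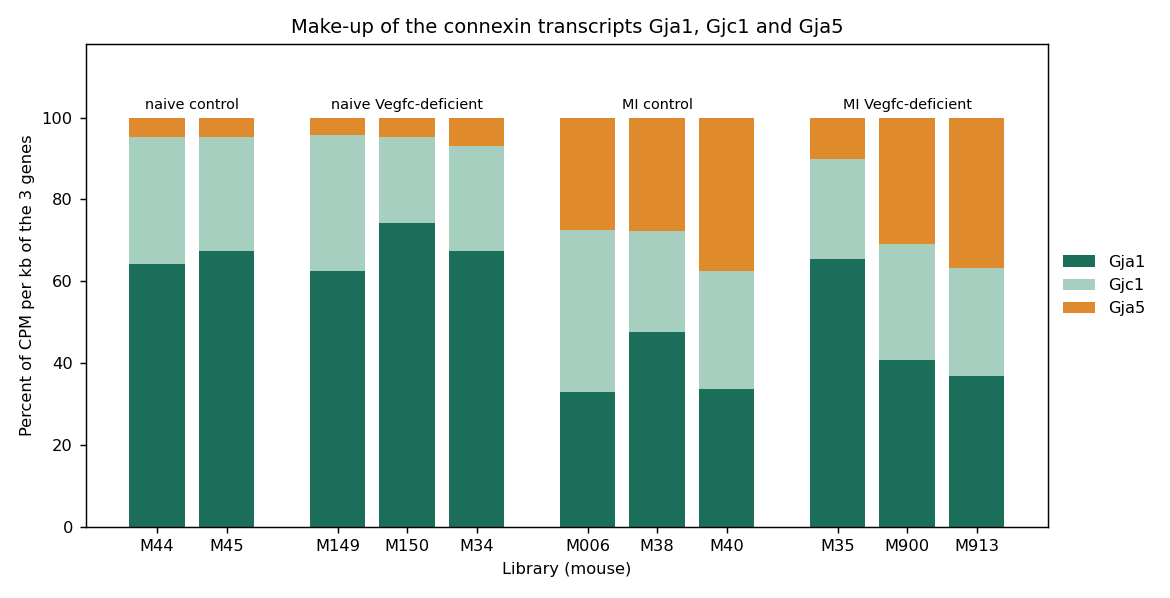
Share of Gja1, Gja5 and Gjc1 in their summed CPM per kilobase of exon, in percent, as 1 stacked bar for each of the 11 libraries by group. Gja1 takes 62.4% or more in all naive libraries and in MI Vegfc-deficient M35, and at most 47.7% in the other 5 MI libraries.

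The 5 desmosomal genes include 2 cadherins and 3 plaque genes. Dsg2 (ENSMUSG00000044393, chromosome 18, 20558074 to 20604521, plus strand) encodes desmoglein 2, the desmoglein of heart muscle. It was at 41.9 and 42.2 CPM in naive control and at 39.4, 48.9 and 36.1 CPM in naive Vegfc-deficient M149, M150 and M34. Of the MI libraries, control M006, M38 and M40 stood at 5.65, 9.97 and 9.32 CPM and Vegfc-deficient M35, M900 and M913 at 19.2, 5.45 and 6.63 CPM. No MI library reached the lowest naive one. Dsg2 was 5.03-fold lower in control (log2 fold change -2.33, standard error 0.45, adjusted p = 0.00221) and 4.01-fold lower in Vegfc-deficient mice (-2.01, standard error 0.42, adjusted p = 0.00245).

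Dsc2 (ENSMUSG00000024331, chromosome 18, 20030633 to 20059554, minus strand) encodes its partner desmocollin 2. It was at 24.4 and 23.6 CPM in naive control and at 21.7, 22.6 and 25.2 CPM in naive Vegfc-deficient M149, M150 and M34. MI control M006, M38 and M40 had 3.45, 6.05 and 1.137 CPM, and MI Vegfc-deficient M35, M900 and M913 had 9.46, 2.47 and 3.19 CPM. Naive and MI libraries were again fully apart, with M40 lowest. Dsc2 was 6.75-fold lower in control (log2 fold change -2.75, standard error 0.62, adjusted p = 0.00467) and 4.66-fold lower in Vegfc-deficient mice (-2.22, standard error 0.57, adjusted p = 0.00759). Without MI control M38 the log2 fold change of Dsc2 in control mice was -3.49. Dsg2 held 47.8% to 58.4% of the CPM per kb of the pair in 10 libraries and 83.9% in MI control M40.

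Pkp2 (ENSMUSG00000041957, chromosome 16, 16213318 to 16272712, plus strand) encodes plakophilin 2, an armadillo protein of the desmosomal plaque that is often altered in arrhythmogenic cardiomyopathy. It was at 212 and 214 CPM in naive control and at 228, 301 and 237 CPM in naive Vegfc-deficient M149, M150 and M34. Of the MI libraries, control M006, M38 and M40 stood at 48.4, 69.2 and 19.1 CPM and Vegfc-deficient M35, M900 and M913 at 109, 35.6 and 49.99 CPM. The groups did not overlap in either genotype. Pkp2 was 4.68-fold lower in control (log2 fold change -2.23, standard error 0.51, adjusted p = 0.00520) and 3.95-fold lower in Vegfc-deficient mice (-1.98, standard error 0.48, adjusted p = 0.00515). Without M149 the fall of these 3 genes in Vegfc-deficient mice was -2.04 for Dsg2, -2.27 for Dsc2 and -2.06 for Pkp2 on the log2 scale. Without M35 it was larger, at -2.78 for Dsg2, -3.03 for Dsc2 and -2.58 for Pkp2. All 3 genes passed the test both times.

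Dsp (ENSMUSG00000054889, chromosome 13, 38151294 to 38198577, plus strand) encodes desmoplakin, which links the plaque to desmin filaments. It was at 283 and 324 CPM in naive control and at 237, 333 and 293 CPM in naive Vegfc-deficient M149, M150 and M34. MI control M006, M38 and M40 had 75.4, 101 and 28.6 CPM, and MI Vegfc-deficient M35, M900 and M913 had 238, 57.4 and 79.2 CPM. In control mice the groups were apart, but M35 was just above the lowest naive Vegfc-deficient library. Dsp was 4.43-fold lower in control mice (log2 fold change -2.15, standard error 0.59, adjusted p = 0.0120), with an adjusted p of 0.0588 without naive control M45. In Vegfc-deficient mice the log2 fold change was -1.21 (standard error 0.54, adjusted p = 0.0756), -2.07 without M35 (adjusted p = 0.00365) and -1.33 without M149 (adjusted p = 0.0850). The adjusted p of Dsp was 0.0411 without MI control M40 and 0.0326 with DESeq2.

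Jup (ENSMUSG00000001552, chromosome 11, 100368958 to 100397763, minus strand) encodes plakoglobin, which serves both desmosomes and adherens junctions. It was at 136 and 111 CPM in naive control and at 97.2, 103 and 135 CPM in naive Vegfc-deficient M149, M150 and M34. Of the MI libraries, control M006, M38 and M40 stood at 66.9, 61.4 and 54.4 CPM and Vegfc-deficient M35, M900 and M913 at 98.4, 66.0 and 75.9 CPM. The control groups did not overlap, and M35 lay just above M149 in the Vegfc-deficient groups. Jup was 2.02-fold lower in control (log2 fold change -1.02, standard error 0.20, adjusted p = 0.00254) and 1.39-fold lower in Vegfc-deficient mice (-0.48, standard error 0.18, adjusted p = 0.0450). The latter call held without M149 (adjusted p = 0.0346), M35 or M40, and was lost without any 1 of the other 8 libraries, with adjusted p-values of 0.0529 to 0.179 for Jup, the highest without M34. Of the CPM per kb of the 3 plaque genes Dsp, Pkp2 and Jup, Jup held 14.97% to 23.5% in naive libraries and 25.4% to 56.4% in MI libraries.

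Cdh2 (ENSMUSG00000024304, chromosome 18, 16588877 to 16809246, minus strand) encodes N-cadherin, the cadherin of the fascia adherens, which fibroblasts also express. It was at 72.3 and 72.2 CPM in naive control and at 56.1, 75.6 and 56.7 CPM in naive Vegfc-deficient M149, M150 and M34. MI control M006, M38 and M40 had 32.2, 33.8 and 44.2 CPM, and MI Vegfc-deficient M35, M900 and M913 had 70.0, 62.4 and 43.4 CPM. Control groups were apart and Vegfc-deficient groups overlapped. Cdh2 was 1.97-fold lower in control mice (log2 fold change -0.98, standard error 0.22, adjusted p = 0.00460), and its log2 fold change in Vegfc-deficient mice was -0.10 (standard error 0.20, adjusted p = 0.687), or -0.18 without M149.

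Tjp1 (ENSMUSG00000030516, chromosome 7, 65296165 to 65527781, minus strand) encodes ZO-1, a scaffold that binds connexin 43 at the rim of the gap junction and also serves tight junctions of other cells. It was at 47.4 and 48.6 CPM in naive control and at 39.5, 50.4 and 51.0 CPM in naive Vegfc-deficient M149, M150 and M34. Of the MI libraries, control M006, M38 and M40 stood at 63.6, 47.5 and 47.5 CPM and Vegfc-deficient M35, M900 and M913 at 94.4, 76.5 and 59.9 CPM. The control groups overlapped, and all 3 MI Vegfc-deficient libraries lay above the naive ones. The log2 fold change was 0.14 in control mice (standard error 0.21, adjusted p = 0.5998), with a 95% interval of -0.32 to 0.60. Tjp1 was 1.64-fold higher in Vegfc-deficient mice (log2 fold change 0.71, standard error 0.19, adjusted p = 0.00820), or 0.60 on the log2 scale without M149 (adjusted p = 0.0300). With the length trend of each library removed, the adjusted p of Tjp1 was 0.101.

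Among the 10 genes, 8 of control mice lay below and 1 above the naive libraries without overlap, where 72.1% of all genes did not overlap (33% below, 39.1% above). In Vegfc-deficient mice 3 lay below and 2 above, where 64.3% of all genes did not overlap (30.7% below, 33.6% above). Single libraries moved these counts. Without naive control M45, which left 1 naive control library that was assumed to vary like the other groups, 5 genes were called lower in control mice, where the share of all genes called was 30.1% in place of 50.4%. The share given without M45 counts genes called in either direction. Without MI Vegfc-deficient M35, 7 were called lower and 2 higher in Vegfc-deficient mice, with 57.2% of all genes called in either direction. Without M149, 5 were called lower and 2 higher, with 56.6% of all genes called (27% lower, 29.6% higher). Also without M149, 6 of the 10 lay below the naive Vegfc-deficient libraries and 2 above, Gja1, Dsp and Jup being the 3 added below, where 73.9% of all genes did not overlap.

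Cardiomyocyte transcripts as a whole were lower after MI. All 14 cardiomyocyte markers, Myh6 and Tnnt2 among them, were lower in control mice and 13 of 14 in Vegfc-deficient mice, with median log2 fold changes of -3.13 and -2.63. Without M149 the latter was -2.72, with 13 of 14 again lower. Their summed level was 105021 and 116162 CPM in naive control and 93091 to 129418 CPM in naive Vegfc-deficient libraries. It came to 13699, 18671 and 3373 CPM in MI control M006, M38 and M40, while MI Vegfc-deficient M35, M900 and M913 had 32625, 7394 and 14766 CPM. M35 was thus the highest and M40 the lowest of the MI libraries. The 10 fibroblast markers, of which 8 were higher in control and 9 in Vegfc-deficient mice (7 without M149), summed to 4862 to 6771 CPM in naive and 30149 to 47787 CPM in MI libraries.

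Libraries were also scaled so that the mean log2 count of the 14 cardiomyocyte markers was equal, and MI was again tested against naive. In each genotype 4 of the 10 genes were then not called and 6 were called higher. A value above 0 on this scale is a change relative to the markers and not by itself a rise in level. The 4 were Dsp, Dsg2, Dsc2 and Pkp2, with log2 fold changes in control mice of 1.16, 1.63, 0.40 and 1.08 and adjusted p-values of 0.216, 0.106, 0.680 and 0.253. In Vegfc-deficient mice the log2 fold changes of these 4 were 1.27, 0.53, 0.28 and 0.61, and without M149 they were 1.24, 0.61, 0.33 and 0.64. The other 6 genes were called higher after MI on this scale in both genotypes, from 2.15 for Gja1 (adjusted p = 0.0314) to 5.89 for Gja5 (adjusted p = 7.09e-05) in control mice. In Vegfc-deficient mice without M149 the call of Gja1 was lost (log2 fold change 1.62, adjusted p = 0.139), and the other 5 kept theirs. No test compared the called genes with the 4 others, and the 95% intervals of Dsg2 (-0.31 to 3.56) and Gja1 (0.24 to 4.06) in control mice overlapped over most of their length. On this scale the median of all genes was 4.02 in control and 3.06 in Vegfc-deficient mice, and 90.5% and 83.3% of genes were called higher (75.3% in Vegfc-deficient mice without M149, with a median of 3.17). Relative to that median, Gja5 alone of the 10 stood above it in control mice, and Gja5 and Tjp1 did in Vegfc-deficient mice.

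**Figure D4:**
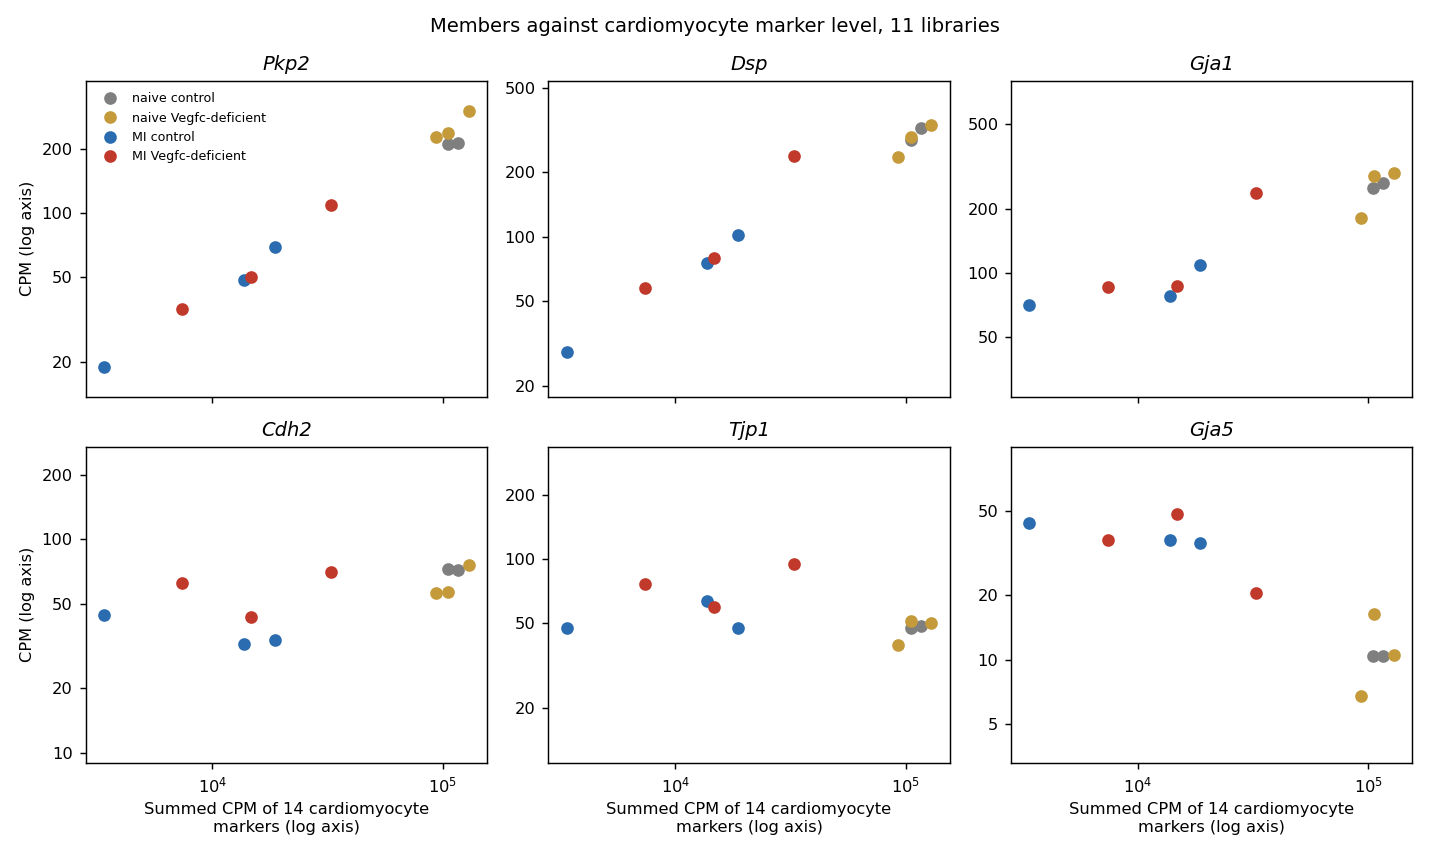
Level of Pkp2, Dsp, Gja1, Cdh2, Tjp1 and Gja5 in CPM against the summed CPM of 14 cardiomyocyte markers, both on log axes, with 1 point per library coloured by group. Dsp and Pkp2 follow the marker sum within the MI libraries, where M40 is lowest and M35 highest, and Gja5 does not.

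Within groups, 3 of the 5 desmosomal genes followed the cardiomyocyte markers closely. After subtracting each group's mean, Pearson's r of log2 CPM with the log2 marker sum over the 11 libraries was 0.988 for Pkp2, 0.968 for Dsp and 0.953 for Dsc2. It was 0.724 for Gja1, 0.613 for Jup, 0.474 for Dsg2, 0.417 for Gjc1 and 0.413 for Tjp1. Cdh2 was at -0.171 and Gja5 at -0.405. These are descriptions over 11 libraries that share depth and tissue make-up, and M40 and M35 were the MI libraries with the lowest and highest marker sums. Among the members themselves, Dsp and Pkp2 were most alike (r = 0.983), followed by Dsc2 and Pkp2 (r = 0.974) and Dsp and Dsc2 (r = 0.973).

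The genes with the most similar within-group pattern were sought among 9970 genes with a mean of at least 10 CPM. For Gja1 they were Hdac9 (r = 0.988), Gpd1 (r = 0.980) and Sorbs2 (r = 0.975) over 11 libraries. For Dsp they were Akap6 (r = 0.995), Lpl (r = 0.993) and Tmem182 (r = 0.993). For Gja5 they were Ptma (r = 0.976), 5730409E04Rik (r = 0.968) and Nsmf (r = 0.967). The highest r among 9970 genes over 11 libraries is high partly by selection. M149 was included, and these r were not recomputed without it.

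MI Vegfc-deficient against MI control hearts asks whether loss of myeloid Vegfc altered the junction genes in the infarct. None of the 10 genes was called, where 0% of all genes were called by the edgeR test, 7.94% (1173 genes) had an unadjusted p under 0.05, DESeq2 called 62 genes and limma-voom called 0. Neither of these other tools called any of the 10. The groups overlapped in all 10 genes, where 12.1% of all genes did not overlap. The median log2 fold change was 0.49, beside -0.0073 over all genes and 0.54 over the cardiomyocyte markers, of which 0 of 14 were called.

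Cdh2 and Tjp1 had the smallest unadjusted p. Cdh2 was at 58.6 ± 13.7 CPM in MI Vegfc-deficient and 36.7 ± 6.49 CPM in MI control hearts (SD, n = 3 each), a log2 fold change of 0.67 (standard error 0.20, adjusted p = 0.584 by edgeR). Tjp1 was at 77.0 ± 17.3 and 52.8 ± 9.30 CPM in the same groups, a log2 fold change of 0.54 (standard error 0.19, adjusted p = 0.584 by edgeR). In both genes 1 Vegfc-deficient library lay below the highest control library. The 95% intervals were 0.23 to 1.11 for Cdh2 and 0.13 to 0.95 for Tjp1.

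The other log2 fold changes were 0.87 for Dsp (95% interval -0.32 to 2.05), 0.67 for Gja1 (-0.17 to 1.51), 0.51 for Pkp2 (-0.52 to 1.53) and 0.48 for Dsc2 (-0.78 to 1.75). Jup was at 0.40 (-0.011 to 0.80), Dsg2 at 0.30 (-0.61 to 1.22), Gjc1 at -0.0032 (-0.49 to 0.48) and Gja5 at -0.14 (-0.85 to 0.58). The intervals of these 8 genes include 0. These values moved in both directions when single libraries were left out. The log2 fold change was 1.31 for Dsp, 1.19 for Dsc2 and 0.99 for Pkp2 without MI control M38. M35 was the MI Vegfc-deficient library with the most cardiomyocyte transcript. Without it the log2 fold change was 0.0078 for Gja1, -0.0028 for Dsp, -0.47 for Dsg2, -0.33 for Dsc2, -0.09 for Pkp2, 0.22 for Jup, -0.21 for Gjc1, 0.13 for Gja5, 0.53 for Cdh2 and 0.37 for Tjp1.

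**Figure D5:**
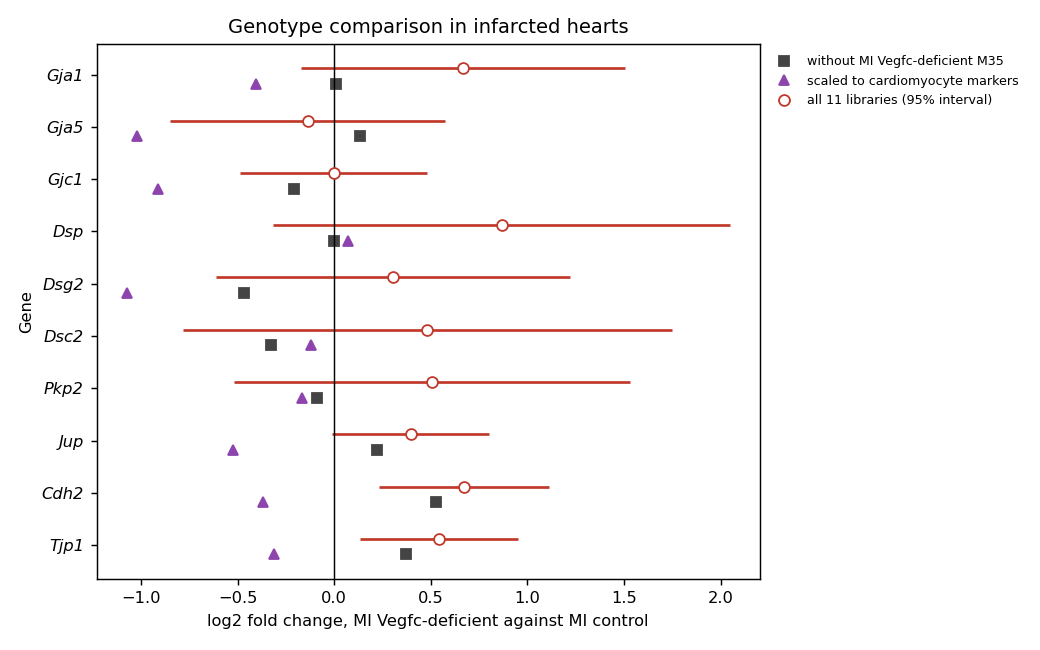
Log2 fold change of each gene, MI Vegfc-deficient against MI control, with all 11 libraries (open circles with 95% intervals), without library M35 (squares) and scaled to the cardiomyocyte markers (triangles). Without M35, Gja1 and Dsp sit at 0.0078 and -0.0028, and after marker scaling, where the median of all genes is -0.86, only Dsp is above 0.

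Naive Vegfc-deficient against naive control hearts gave the same comparison without injury. None of the 10 genes was called, where the edgeR test called 0% of all genes, 3.38% (499 genes) had an unadjusted p under 0.05, DESeq2 called 14 genes and limma-voom 6. None of the 10 had an unadjusted p under 0.05. Log2 fold changes ran from -0.26 for Gjc1 (95% interval -0.80 to 0.28) to 0.26 for Pkp2 (-0.88 to 1.41). Those 2 genes were also the ones whose groups did not overlap, Gjc1 below and Pkp2 above, where 22.4% of all genes did not overlap (10.1% below, 12.3% above). Without M149 the log2 fold change was -0.26 for Gjc1 and 0.34 for Pkp2, it was 0.17 for Gja1 in place of -0.022, and it reached 0.38 for Gja5. None of the 10 had an unadjusted p under 0.05 without M149 either, where 0.115% of all genes (17 genes) were called by edgeR and 983 genes had an unadjusted p under 0.05. In that setting 5 of the 10 did not overlap (Gja1, Gja5, Pkp2 and Tjp1 above, Gjc1 below), where 45.6% of all genes did not.

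The difference in the MI response between genotypes was tested as an interaction. Of all genes, 0% were called by edgeR and 8.3% (1226 genes) had an unadjusted p under 0.05, while DESeq2 called 58 and limma-voom 0. Of the 10 genes, 0 were called by any of these. The fall of Cdh2 in control mice and its log2 fold change near 0 in Vegfc-deficient mice differed by 0.88 (standard error 0.30, unadjusted p = 0.0138, adjusted p = 0.543 by edgeR), and the rise of Tjp1 by 0.57 (standard error 0.28, adjusted p = 0.618). For Gja1 and Dsp, called in control and not in Vegfc-deficient mice, the difference was 0.69 (standard error 0.56) and 0.94 (standard error 0.79), with adjusted p-values of 0.746 and 0.754. Without M149 the differences were 0.80 for Cdh2 (standard error 0.32, unadjusted p = 0.0313, adjusted p = 0.371 by edgeR), 0.46 for Tjp1, 0.496 for Gja1 and 0.82 for Dsp, and edgeR called 1 gene, which was not among the 10. The responses were therefore not shown to differ between genotypes.

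Other junction genes from fixed lists stood as follows in MI against naive hearts. Of all genes, 26.3% were higher and 24.1% lower in control mice, and 30% and 27.7% in Vegfc-deficient mice. These shares belong beside each list count that follows. Of 17 other connexins, 6 were tested, and 3 were higher and 1 lower in each genotype. Gja4, the arterial connexin 37, was 1.94-fold higher in control mice (log2 fold change 0.96, standard error 0.26, adjusted p = 0.0108). Gja3 was 8.20-fold lower (log2 fold change -3.04, standard error 0.48, adjusted p = 8.73e-04). Gjb5 was at a mean of 0.135 CPM in naive control, under 3 counts, and at 6.69 CPM in MI control hearts (adjusted p = 9.53e-04), so no fold is given. Of 2 pannexins tested, the channel gene Panx1 was higher in both genotypes, with a log2 fold change of 2.10 in control mice (standard error 0.23, adjusted p = 2.02e-04), and in Vegfc-deficient mice 1 was lower.

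Of 13 other desmosomal genes, 6 were tested, with 2 higher and 3 lower in control and 0 higher and 3 lower in Vegfc-deficient mice. The plakophilin relative Pkp4 fell by 1.25 on the log2 scale (standard error 0.16, adjusted p = 3.34e-04) and Perp, a desmosomal membrane protein gene, by 2.38 (standard error 0.47, adjusted p = 0.00248) in control mice. The epithelial plakophilin Pkp3 was at 0.0899 CPM in naive control, under 3 counts, and at 4.67 CPM in MI control hearts (adjusted p = 0.00172). Evpl, encoding envoplakin, rose by 1.78 (standard error 0.58, adjusted p = 0.0264) from a mean of 0.314 CPM. Of 9 mesothelial and epithelial markers, 8 were tested, and 6 in control and 4 in Vegfc-deficient mice were higher, with sums of 28.7 to 46.0 CPM in naive and 56.2 to 222 CPM in MI libraries. Their part in the epithelial genes was not tested.

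Of 10 adherens junction genes tested, 2 were higher and 6 lower in control mice and 3 and 3 in Vegfc-deficient mice. Vcl, encoding the actin linker vinculin, rose by 1.40 on the log2 scale (standard error 0.32, adjusted p = 0.00516) and Lima1 by 0.82 (standard error 0.13, adjusted p = 8.79e-04) in control mice. Ctnna1, encoding alpha-catenin, fell by 1.01 (standard error 0.21, adjusted p = 0.00295). Of 7 other cadherins, 3 were higher and 1 lower in control and 5 and 1 in Vegfc-deficient mice. Cdh11, a fibroblast cadherin, rose 8.19-fold in control mice (adjusted p = 3.74e-04), Cdh13 fell by 1.47 on the log2 scale (adjusted p = 0.00159), and Cdh3 was at 0.0899 CPM, under 3 counts, in naive control and at 11.1 CPM in MI control hearts (adjusted p = 3.23e-04).

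Of 13 other intercalated disc genes, 1 was higher and 9 lower in control mice and 2 and 9 in Vegfc-deficient mice. Their median log2 fold changes were -1.27 and -1.22, beside 0.13 and 0.097 over all genes. Xirp1, an actin-binding repeat protein gene of the disc, fell by 2.63 on the log2 scale (standard error 0.50, adjusted p = 0.00211), Tmem65 by 1.27 (standard error 0.15, adjusted p = 2.85e-04), and Tmem43 rose by 0.86 (standard error 0.15, adjusted p = 0.00127) in control mice. Of 10 genes of connexin 43 trafficking and phosphorylation, 4 were higher and 2 lower in control and 5 and 1 in Vegfc-deficient mice. This is near the shares of all genes called, 50.4% in control and 57.6% in Vegfc-deficient mice. Src, a tyrosine kinase that phosphorylates connexin 43, rose by 1.99 (standard error 0.28, adjusted p = 5.19e-04) and Dbn1 by 1.54 (standard error 0.22, adjusted p = 5.46e-04). Cav3, the muscle caveolin, fell by 2.29 (standard error 0.29, adjusted p = 3.32e-04) and Prkce by 0.75 (standard error 0.19, adjusted p = 0.00835).

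Of 10 tight junction genes tested, 2 were higher and 2 lower in control and 1 and 2 in Vegfc-deficient mice. This is below the shares of all genes called, 50.4% in control and 57.6% in Vegfc-deficient mice. Esam fell by 1.05 on the log2 scale (standard error 0.26, adjusted p = 0.00770) and Jam2 by 1.18 (standard error 0.30, adjusted p = 0.00913) in control mice, both endothelial adhesion genes. Cldn1 was at 0.449 CPM in naive control and 2.44 CPM in MI control hearts (adjusted p = 0.00612), and Cldn3 was at 0 in naive control and 0.460 CPM in MI control hearts (adjusted p = 0.0260). Of 9 blood endothelial markers, 1 was higher and 2 lower in control and 3 and 2 in Vegfc-deficient mice. In both comparisons between genotypes, 0 genes of any of these lists were called, with or without M149.

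Some list counts in Vegfc-deficient mice moved without M149. Of all genes, 29.6% were higher and 27% lower in that setting. Higher genes then numbered 1 of the 6 other connexins in place of 3, 3 of the 7 other cadherins in place of 5, 0 of the 10 tight junction genes in place of 1, 1 of the 9 blood endothelial markers in place of 3 and 6 of the 8 mesothelial and epithelial markers in place of 4. Lower genes numbered 0 other cadherins in place of 1 and 2 connexin 43 trafficking genes in place of 1. Counts of the pannexins and of the other desmosomal, adherens junction and intercalated disc genes were as given above, and so were those of the atrial and conduction system markers. The median log2 fold change of the other intercalated disc genes was -1.27 without M149.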

How the data were processed

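RNA was sequenced from the left ventricle of 11 mice with stranded mRNA libraries (TruSeq). The authors deposited raw read counts for 25006 Ensembl genes, without normalization. Their processing notes name cutadapt 1.13, STAR, HTSeq 0.6.1p1, DESeq2 1.14.1 and the mm10 build. The annotation release and the strand setting of the counting are not given in the sources used here. Gene symbols, exon lengths and coordinates came from GENCODE M21 (24991 identifiers matched), and promoters from RefSeq on GRCm38.p6.

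Counts were filtered with edgeR 4.0.16 (filterByExpr by group), scaled by TMM and fitted over all 11 libraries with 1 coefficient per group. Contrasts were tested by the quasi-likelihood test in R 4.3.3, with Benjamini-Hochberg adjustment over 14779 genes and a threshold of 0.05. No fold is printed for genes whose naive control mean was under 3 counts, and no list median given here includes such a gene. The p-values measure the spread between libraries, 1 per mouse. No 2 libraries of a group agreed within counting noise. The code was tested on simulated data. The members and gene lists were chosen with earlier results of these data known. All 10 members were named, and from each other list up to 2 genes per direction with the smallest adjusted p in control mice. A gene that this rule names is not reported here. Neighbours were the 3 genes with the highest r for Gja1, Gja5 and Dsp. Alternatives were DESeq2 1.42.0, its size factors in edgeR, limma 3.58.1 voom with quality weights, other low-count filters, the compared groups alone, stricter thresholds, cardiomyocyte marker scaling, removal of a length trend, the longest transcript as gene length, and leaving out each library. Marker lists for smooth muscle and pericytes (6 of 9 higher and 2 lower in each genotype after MI), macrophages (5 of 8 higher in each, 6 in Vegfc-deficient mice without M149) and lung (3 of 6 tested, 1 higher and 2 lower in each, and 0 and 1 of 2 tested in Vegfc-deficient mice without M149) were also counted. The list counts, levels and marker scaling without M149 were chosen after seeing the data.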

Additional observations from a re-analysis of the deposited data

How the results depend on the processing

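Of the log2 fold changes recomputed for single genes with 1 choice changed at a time, 837 alternatives kept direction and side of the threshold, 17 lost and 14 gained the call, and 72 changed sign. Gja5 was called higher after MI in both genotypes under all 19 alternatives. Cardiomyocyte marker scaling changed most: 6 of the 10 genes were then called higher and 0 lower after MI in each genotype. On that scale 90.5% of all genes in control and 83.3% in Vegfc-deficient mice were called higher. Without M149 the call of Gja1 in Vegfc-deficient mice was lost, where 75.3% of all genes were called higher. In Vegfc-deficient mice, limma-voom called 7 genes lower and 2 higher (63.8% of all genes called). With the length trend removed, 7 were lower and 1 higher (54.2%). With a minimum absolute log2 fold change of 1, 3 were lower and 1 higher (33.6%). These shares, and those given next for single libraries, count genes called in either direction. Leaving out 1 library gave 5 to 8 genes lower in control mice (5 without naive control M45) and 3 to 7 in Vegfc-deficient mice (7 without M35). The share of all genes called then ran from 30.1% (without M45) to 51.6% in control and from 46.9% (without M900) to 58.3% in Vegfc-deficient mice, beside 50.4% and 57.6% with all libraries. The cause was not tested.

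Signs changed as follows (log2 fold changes). With marker scaling, MI against naive gave Gja1 2.15, Gjc1 3.08, Dsp 1.16, Dsg2 1.63, Dsc2 0.40, Pkp2 1.08, Jup 2.79, Cdh2 3.07 in control and Gja1 1.74, Gjc1 2.36, Dsp 1.27, Dsg2 0.53, Dsc2 0.28, Pkp2 0.61, Jup 2.35, Cdh2 2.87 in Vegfc-deficient mice (without M149 Gja1 1.62, Gjc1 2.46, Dsp 1.24, Dsg2 0.61, Dsc2 0.33, Pkp2 0.64, Jup 2.34, Cdh2 2.90); between MI genotypes it gave Gja1 -0.41, Dsg2 -1.07, Dsc2 -0.12, Pkp2 -0.17, Jup -0.52, Cdh2 -0.37, Tjp1 -0.31; between naive genotypes Gja1 0.0091, Dsg2 0.021, Dsc2 0.0063, Tjp1 0.016; and as the difference in response Gja1 -0.41, Gjc1 -0.73, Dsg2 -1.09, Dsc2 -0.12, Pkp2 -0.47, Jup -0.44, Cdh2 -0.20, Tjp1 -0.33. With the length trend removed, MI against naive in control mice gave Tjp1 -0.069, and the naive genotypes gave Gja1 0.020, Dsg2 0.014, Tjp1 0.0060. With limma-voom, the MI genotypes gave Gja5 0.038, Dsg2 -0.22, the naive genotypes Gja1 0.036, Tjp1 0.012 and the difference in response Dsg2 -0.15. With DESeq2 or its size factors the MI genotypes gave Gjc1 0.0039. Leaving out 1 library gave these ranges between MI genotypes: Gjc1 -0.21 to 0.27, Gja5 -0.45 to 0.13, Dsp -0.0028 to 1.31, Dsg2 -0.47 to 0.64, Dsc2 -0.33 to 1.19, Pkp2 -0.091 to 0.99. Between naive genotypes they were Jup -0.30 to 0.011, Gja1 -0.15 to 0.17, Dsp -0.19 to 0.045, Dsg2 -0.16 to 0.068, Tjp1 -0.10 to 0.080, Gja5 -0.27 to 0.38. For the difference in response they were Gja5 -0.55 to 0.13, Pkp2 -0.35 to 0.74, Dsg2 -0.45 to 0.67, Dsc2 -0.28 to 1.25. For MI against naive they were Tjp1 -0.016 to 0.21 in control and Cdh2 -0.25 to 0.054 in Vegfc-deficient mice. The adjusted p of these sign changes was over 0.05 except where marker scaling called the gene higher. No paired analysis was possible because the groups share no replicate numbers.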
